A study of Mus musculus with 12 samples.

Results

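MHC class I molecules carry peptides from inside the cell to its surface, and this account follows the 9 genes H2-K1, H2-D1, B2m, Tap1, Tap2, Tapbp, Psmb8, Psmb9 and Psmb10 that build and load them. They were taken by symbol from the 20325 genes of each deposited table, all 9 were found, and all 9 were among the 13936 genes that passed the filter on low counts. The 12 RNA-seq libraries form 6 groups of 2. They hold RNA of mouse embryonic fibroblasts (MEFs), taken either as fibroblasts or 4 days into reprogramming toward pluripotency. Every group carried the OSKM reprogramming cassette and rtTA, the doxycycline-dependent activator, and started from conditional AF10 fl/fl cells, per the labels. AF10, encoded by Mllt10, is a partner of DOT1L, the enzyme that methylates lysine 79 of histone H3.

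MEF_fl and the day 4 groups with fl in their names received an empty adenovirus, Ad5-CMV-Empty, and kept the genotype AF10 fl/fl. MEF_creAF10 and the day 4 groups with creAF10 in their names received Ad5-CMV-Cre, with Cre driven by a general viral promoter, and are labelled AF10 -/-. Cells lacking floxed alleles were never given Cre here, so an effect of AF10 loss and an effect of that virus cannot be told apart. On day 4 the cells had been in 2 µg/mL doxycycline, with DMSO in Day4_fl_DMSO and Day4_creAF10_DMSO and with 5 µM SGC0946, an inhibitor of DOT1L, in Day4_fl_SGC and Day4_creAF10_SGC. The reprogramming cells grew in stem cell medium on DR4 feeder MEFs and the MEFs in their own medium, so stage, medium, feeder cells and doxycycline changed together. Doxycycline was started 2 days after the virus in the day 4 groups. For the MEFs no time since the virus is listed, so that time may differ between the stages too. Age, strain and MHC haplotype are not given in the sources used here.

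Library depth ran from 14602536 to 22800753 expected counts. Mllt10 RNA, which the files give as 1 value per gene, stood at 69.3% to 81.7% of the fl level in the 6 AF10-deleted libraries, each set against the fl library of the same number (TPM), so most of its reads were present in these libraries too. Reads from the deleted part and from the rest of the gene cannot be told apart in these values. The 10 fibroblast markers summed to 22407 to 27678 TPM in the 4 MEF libraries and to 12444 to 14190 TPM in the 8 day 4 libraries, with none at 0. Summed counts of Y-linked genes lay between 4035 and 4780 in the libraries numbered 1 and between 8 and 52 in those numbered 2, so the 2 numbers mark different sources of cells. Each comparison was therefore read in 2 edgeR fits, one without the replicate number (the unpaired fit) and one with a term for it within each stage (the paired fit). A gene was called at a Benjamini-Hochberg adjusted p under 0.05 over all 13936 genes. With 2 sources of cells, no p-value here measures the spread between many animals. Those of the unpaired fit rest on the spread between the libraries of a group. The paired fit takes out the difference between the 2 sources, and its p-values rest on the spread that is left. Beside its 4 residual degrees of freedom it uses a median of 22.4 borrowed from other genes.

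In the class I pathway the proteasome cuts proteins into peptides, and the induced catalytic subunits Psmb8, Psmb9 and Psmb10 take the places of the constitutive Psmb5, Psmb6 and Psmb7 to form the immunoproteasome. The transporter made of Tap1 and Tap2 moves the peptides into the endoplasmic reticulum. There tapasin, the product of Tapbp, holds the transporter to the heavy chain (H2-K or H2-D) and its light chain, beta 2 microglobulin from B2m, until a fitting peptide is bound. Interferons induce the whole pathway, and NLRC5 is a transactivator of class I genes. Fibroblasts express it at a moderate level, and pluripotent cells are known for a low one.

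The upstream sequences are shown because the members differed in response although they belong to a single pathway, and because one pair shares a start region. RefSeq's table for build GRCm38.p6 has entries for 8 of the 9 members, all but Tap2. The 200 bases before each annotated start were searched on both strands for the interferon element ISRE (GAAA, any 2 bases, GAAA), the GAS element TTCNNNGAA, the kappaB element (GGG, any 5 bases, CC), the GC box GGGCGG and the CRE TGACGTCA. Of all 32851 promoters in the table, 2.27% hold an ISRE match in this window, 5.49% a GAS, 41.4% a kappaB, 31.05% a GC box and 1.47% a CRE match. Capitals mark the matches, which may overlap one another.
H2-K1, chr17:34000348-34000547, minus strand: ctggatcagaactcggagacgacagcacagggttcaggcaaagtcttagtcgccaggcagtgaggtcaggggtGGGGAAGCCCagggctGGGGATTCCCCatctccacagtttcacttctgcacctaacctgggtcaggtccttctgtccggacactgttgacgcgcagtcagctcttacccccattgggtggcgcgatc
H2-D1, chr17:35262894-35263093, plus strand: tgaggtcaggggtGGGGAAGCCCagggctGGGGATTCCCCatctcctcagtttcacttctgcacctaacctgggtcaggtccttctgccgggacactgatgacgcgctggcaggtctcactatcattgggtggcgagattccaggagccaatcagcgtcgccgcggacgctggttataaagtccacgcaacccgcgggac
B2m, chr2:122147487-122147686, plus strand: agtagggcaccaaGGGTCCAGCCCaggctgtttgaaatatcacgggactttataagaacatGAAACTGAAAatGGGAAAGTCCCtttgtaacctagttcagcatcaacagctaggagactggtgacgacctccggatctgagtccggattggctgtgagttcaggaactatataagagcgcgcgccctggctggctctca
Psmb8, chr17:34197995-34198194, plus strand: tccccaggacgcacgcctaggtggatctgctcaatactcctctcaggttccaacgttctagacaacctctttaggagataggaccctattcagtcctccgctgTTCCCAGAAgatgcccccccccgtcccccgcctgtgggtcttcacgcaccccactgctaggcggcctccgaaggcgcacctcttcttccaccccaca
Between Psmb9 and Tap1, chr17:34187331-34187555, plus strand: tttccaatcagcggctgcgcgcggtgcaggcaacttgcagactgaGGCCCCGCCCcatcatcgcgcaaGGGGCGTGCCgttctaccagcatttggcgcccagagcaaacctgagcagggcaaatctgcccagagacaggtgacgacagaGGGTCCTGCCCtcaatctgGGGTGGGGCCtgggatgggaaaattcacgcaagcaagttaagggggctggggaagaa

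H2-K1 and H2-D1 carry the same run of overlapping kappaB matches. They lie at positions -127 to -118 and -111 to -101 before the H2-K1 start used for the sequence shown. Before the H2-D1 start they lie at -187 to -178 and -171 to -161. H2-K1 has a second annotated start, before which the same matches lie at -141 to -132 and -125 to -115. The table's full entries are 300 bases long and run past the start. Laid side by side without gaps at the best shift, 176 of the 240 overlapping bases (73.3%) of the 2 full entries are identical. B2m holds an ISRE match at -139 to -130 beside a kappaB match at -127 to -117, and Psmb8 holds the set's GAS match, at -97 to -89. Tap1 and Psmb9 lie head to head with 225 bases between their starts, so the last sequence lies upstream of both, and it holds kappaB matches and 1 GC box. Tapbp has a single GC box match at -51 to -46 and Psmb10 has no match to any of the 5. A kappaB match is common among promoters of this length, and none of these matches is a measured binding site. Only exact matches to the patterns were marked, so a gene without a match may still hold a variant of an element.

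Levels were compared between genes on the TPM scale, which accounts for transcript length. In MEF_fl, B2m led with 3778 ± 246 TPM (SD, n = 2). H2-D1 (392 ± 45.3), Tapbp (323 ± 11.0) and H2-K1 (279 ± 20.4) followed, in an order in which neighbours did not overlap. Tap1 stood at 103 ± 2.23 TPM. Psmb8 (80.5 ± 9.47) and Psmb10 (76.9 ± 8.27) overlapped, and Tap2 (60.3 ± 0.806) and Psmb9 (42.1 ± 4.91) were lowest. The light chain thus had many more transcripts than the 2 classical heavy chains, which it pairs with. In Day4_fl_DMSO the order was B2m (910 ± 25.6), H2-D1 (83.1 ± 4.38), Tapbp (61.4 ± 5.44), Tap1 (33.3 ± 3.49), H2-K1 (32.5 ± 1.14), Tap2 (26.3 ± 1.79), Psmb10 (21.4 ± 0.757), Psmb8 (7.40 ± 1.63) and Psmb9 (5.54 ± 0.156). H2-K1 had moved below Tap1, with which it overlapped, and Psmb8 far below Psmb10. The counts behind these values ran from 28 counts of Psmb9 in Day4_fl_SGC replicate 2 to 24299 of B2m in MEF_creAF10 replicate 2, so Psmb9 on day 4 is the least precisely measured.

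**Figure D1:**
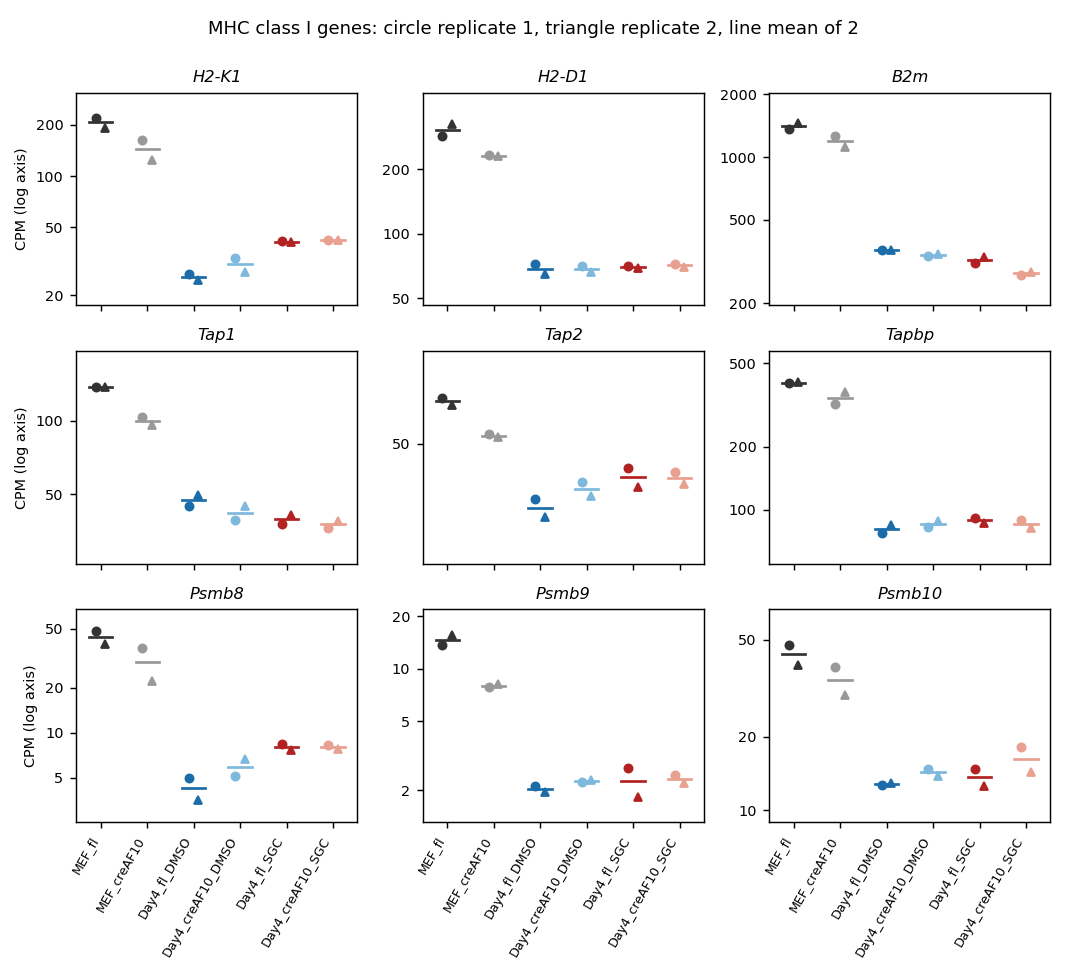
Level of each of the 9 genes in every library, in CPM (counts scaled to a common library size with TMM) on a log axis. Circles are replicate 1, triangles replicate 2 and lines the mean of 2; in each panel both day 4 DMSO libraries lie below both MEF libraries of the same genotype, and H2-K1 and Psmb8 lie higher in SGC0946 than in DMSO.

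All 9 genes fell between MEFs and day 4. In fl cells H2-K1 went to 0.123 times and Psmb8 to 0.0970 times the MEF level, while Tap2 kept the most, at 0.461 times. edgeR's unpaired fit called 9 of 9 lower, where 26.3% of all genes tested were called lower, and the replicate block, the paired fit and DESeq2 each called 9 of 9 as well. The members' median log2 change was -2.15, against 0.014 over all genes tested. In AF10-deleted cells, Day4_creAF10_DMSO against MEF_creAF10, 9 of 9 were again called lower, where 27.5% of all genes were, with a median of -1.81 against 0.017. These 2 comparisons share no library, but both draw on the 2 sources of cells and on the same fit. Medium, feeder cells and doxycycline changed with stage in both. Both day 4 libraries lay below both MEF libraries for 9 of 9 members in each genotype, as they did for 37.9% (fl) and 37.7% (AF10-deleted) of all genes tested. In bulk RNA, fewer cells of a type and less RNA per cell cannot be told apart, and the share of reads from feeder cells on day 4 was not measured.

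The heavy chains fell unequally. On the scale of CPM, which sets each count against the size of its library, H2-K1, the H2-K heavy chain, stood at 220 and 192 CPM in MEF_fl and at 26.5 and 24.4 CPM in Day4_fl_DMSO, a log2 change of -3.02 ± 0.15 (SE; edgeR adjusted p = 4.15e-07). H2-D1, the H2-D heavy chain, went from 286 and 326 to 72.5 and 65.0 CPM, a log2 change of -2.15 ± 0.088 (edgeR adjusted p = 1.83e-07). For both genes each day 4 library lay far below each MEF library. The TPM ratio of H2-K1 to H2-D1 was 0.815 and 0.624 in MEF_fl and 0.387 and 0.397 in Day4_fl_DMSO. RSEM divides reads that match several genes, and 8.79% of the 50-base windows of the H2-K1 transcript and 14.3% of those of H2-D1 also occur in transcripts of other genes (GENCODE for GRCm38), so both levels carry an uncertainty that B2m, Psmb8, Psmb9 and Psmb10, with 0% of their windows shared, do not.

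B2m, which every class I heavy chain needs, went from 1368 and 1453 CPM to 359 and 360 CPM (log2 change -1.97 ± 0.089, edgeR adjusted p = 3.06e-07). Tap1 went from 138 and 138 to 44.6 and 49.8 CPM, a log2 change of -1.55 ± 0.095, and Tap2 from 69.9 and 66.4 to 33.5 and 29.4 CPM, a log2 change of -1.12 ± 0.10. The transporter subunits thus fell by different amounts, and the TPM ratio of Tap2 to Tap1 went from 0.586 ± 0.021 to 0.797 ± 0.14 (SD). Tapbp fell more than either, from 400 and 407 to 77.6 and 84.9 CPM, with a log2 change of -2.31 ± 0.092 (edgeR adjusted p = 1.53e-07).

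The immunoproteasome subunits fell while their constitutive partners did not pass the test. Psmb8 went from 48.1 and 39.4 CPM to 5.00 and 3.53 CPM (log2 change -3.37 ± 0.27, edgeR adjusted p = 1.13e-05). Psmb9 went from 13.7 and 15.7 to 2.13 and 1.97 CPM, a log2 change of -2.84 ± 0.21. Psmb10 fell least of the 3, from 47.5 and 39.5 to 12.7 and 12.9 CPM, with a log2 change of -1.77 ± 0.17. Of the constitutive catalytic subunits Psmb5, Psmb6 and Psmb7, 0 of 3 were called by edgeR or DESeq2 and 0 of 3 had an unadjusted p under 0.05. Psmb8 therefore made up 26.8% ± 2.34 (SD, n = 2) of the TPM of Psmb8 and Psmb5 in MEF_fl and 3.47% ± 0.753 in Day4_fl_DMSO. Psmb9 made up 18.6% ± 0.339 of its pair with Psmb6 and then 2.79% ± 0.0711, and Psmb10 21.8% ± 1.06 of its pair with Psmb7 and then 7.16% ± 0.379. These are shares of RNA and not of assembled proteasomes.

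In AF10-deleted cells each estimated change was smaller in size, and the test of that difference is given with the comparison of AF10 deletion between stages. H2-K1 went from 164 and 124 CPM in MEF_creAF10 to 33.2 and 27.3 CPM in Day4_creAF10_DMSO, a log2 change of -2.25 ± 0.14, and H2-D1 from 233 and 231 to 70.6 and 66.1 CPM, a change of -1.76 ± 0.087. B2m changed by -1.81 ± 0.089 and Tapbp by -1.99 ± 0.091. Tap1 (-1.25 ± 0.095) and Tap2 (-0.56 ± 0.10, edgeR adjusted p = 0.00149) again fell least among the loading genes. Psmb8 went from 37.1 and 22.2 to 5.15 and 6.65 CPM (-2.32 ± 0.26), Psmb9 from 7.82 and 8.15 to 2.24 and 2.29 CPM (-1.81 ± 0.21) and Psmb10 from 38.7 and 29.8 to 14.8 and 13.8 CPM (-1.26 ± 0.17). Of the constitutive catalytic subunits edgeR's unpaired fit called 0 of 3 here too, with 0 at an unadjusted p under 0.05 and 0 called by DESeq2, while the paired fit called 1 of 3 higher, where 35.6% of all genes were, with 3 of 3 at an unadjusted p under 0.05.

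**Figure D2:**
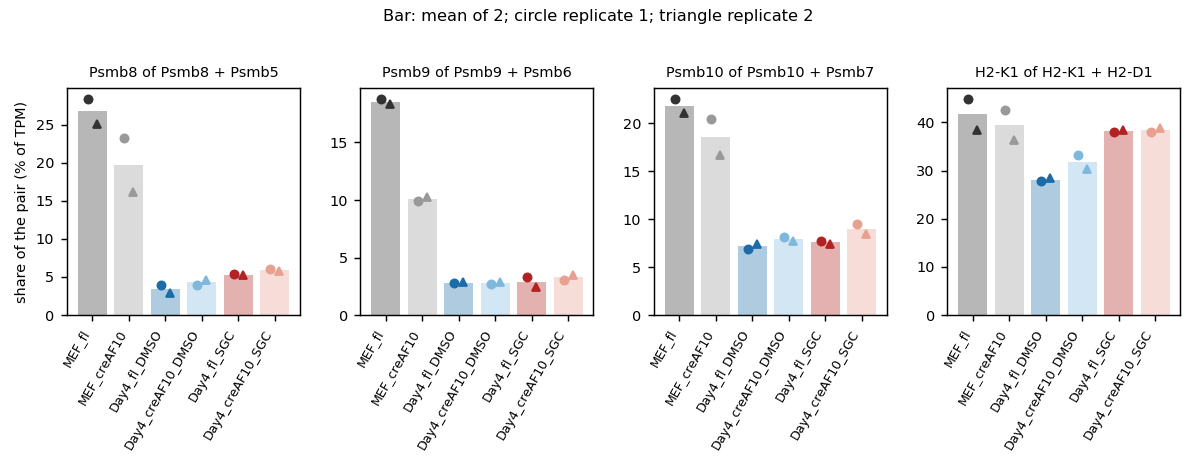
Share of each pair's TPM, in percent, held by the first gene: the 3 induced proteasome subunits against their constitutive partners, and H2-K1 against H2-D1. Bars are means of 2 libraries, circles replicate 1 and triangles replicate 2; Psmb8 drops from 26.8% in MEF_fl to 3.47% in Day4_fl_DMSO, and the H2-K1 share is 28.1% in Day4_fl_DMSO and 38.3% in Day4_fl_SGC.

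Other genes of the pathway fell less uniformly. Of 11 tested nonclassical class I genes, out of 15 in the files, edgeR's unpaired fit called 10 lower in fl cells, where 26.3% of all genes were. Among them were H2-T23, which encodes Qa-1 (log2 change -2.16 ± 0.13), H2-T9 (-2.02 ± 0.17) and H2-T22 (-2.66 ± 0.25). This list had a median of -2.49. Of the 7 genes for peptide trimming and loading 6 fell. Those with the lowest p were the trimming peptidase Erap1 (-1.79 ± 0.11), the folding sensor Uggt1 (-0.74 ± 0.069) and the chaperone Calr (-1.01 ± 0.10). Of the proteasome activators, Psme2 (-1.21 ± 0.12) and Psme1 (-0.45 ± 0.11), the subunits of the interferon-inducible 11S cap, fell, and the other two did not pass. In the remaining 20S list 4 of 12 rose, where 25.7% of all genes were called higher, with Psma1 at 0.54 ± 0.084 and Psmb1 at 0.48 ± 0.083, and 0 fell.

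Among 14 tested regulators of class I genes, 4 fell and 3 rose in the same comparison, shares near those of all genes (26.3% lower and 25.7% higher). The interferon-response factor genes Stat2 and Irf9 changed by -3.38 ± 0.094 and -2.07 ± 0.081. Nlrc5, the class I transactivator, went from 20.6 and 21.7 to 2.01 and 1.88 CPM, a log2 change of -3.44 ± 0.18. The kappaB factor genes Nfkb1 (0.50 ± 0.10) and Rela (0.44 ± 0.098) rose, as did Rfxap (0.50 ± 0.13), a subunit of the RFX complex. Irf1 did not pass, with 42.1 and 40.4 CPM in MEF_fl and 38.0 and 36.6 CPM in Day4_fl_DMSO. Of the receptor and signalling genes Ifngr2, a chain of the interferon gamma receptor, fell (-1.49 ± 0.086) and the feedback inhibitor Socs3 rose (1.07 ± 0.10). Ifng was listed at 0 TPM in all 12 libraries, and Ifnb1 at no more than 0.7 TPM in any.

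**Figure D3:**
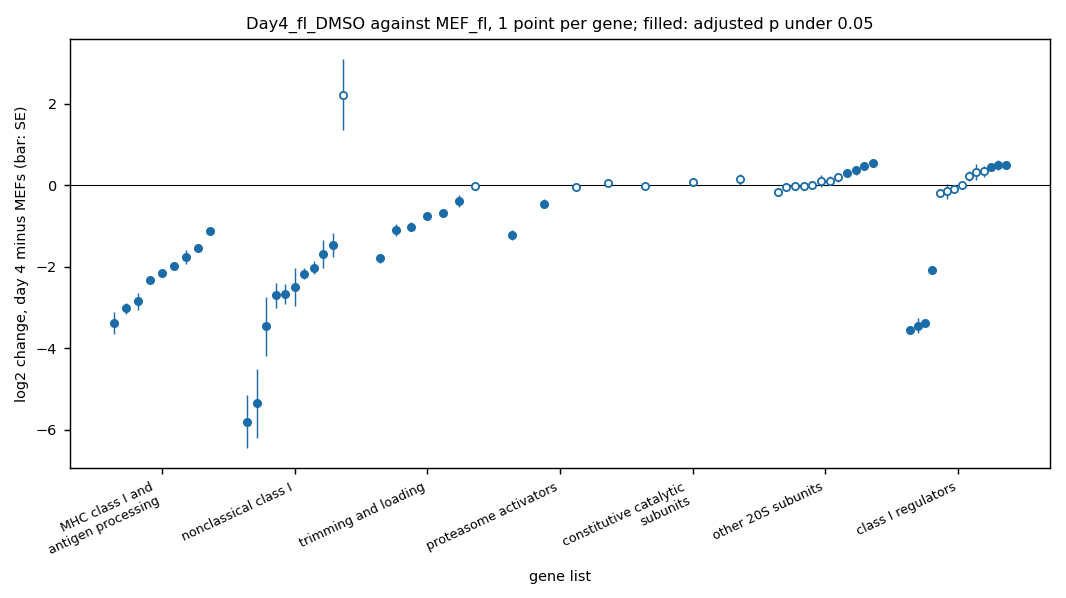
log2 change from MEF_fl to Day4_fl_DMSO for the 9 members and 6 related lists, 1 point per tested gene with its SE, filled where edgeR's unpaired adjusted p was under 0.05. The members lie between -3.37 and -1.12, while the constitutive catalytic and other 20S subunits lie near 0; values beyond -5 belong to genes with near 0 reads on day 4 and depend on the prior count.

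Markers of other cell types also differed between the stages. Macrophages and other blood cells carry abundant class I and immunoproteasome. The 16 genes that mark them summed to 12.3 to 29.5 TPM in MEFs and to 61.7 to 98.8 TPM on day 4, with Laptm5 alone at 29.6 to 49.4 TPM on day 4. The pan-leukocyte marker Ptprc stayed at or under 0.2 TPM in every library. Between MEF_fl and Day4_fl_DMSO the unpaired fit called 25.7% of all genes higher and 26.3% lower. Of 12 tested macrophage and blood genes 5 rose and 1 fell. Of 10 tested fibroblast markers 1 rose and 8 fell. The 7 class II genes, which mark professional antigen-presenting cells, summed to 16.7 to 23.5 TPM in MEFs and 7.18 to 11.2 TPM on day 4. The 5 endothelial genes summed to 8.9 to 9.75 TPM in MEFs and 35.1 to 54.2 TPM on day 4. They did not rise as a set: of 3 tested between MEF_fl and Day4_fl_DMSO 1 rose and 1 fell, with a median log2 change of -0.090. The 6 epithelial genes summed to 15.7 to 29.5 TPM in MEFs and 64.7 to 128 TPM on day 4, and 3 of 5 tested rose between MEF_fl and Day4_fl_DMSO. The part of these cell types in the members' levels was not tested.

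In MEFs all 9 members had lower values after AF10 deletion, and each gene's 2 MEF_creAF10 libraries lay below its 2 MEF_fl libraries, as did those of 10.8% of all genes tested. The unpaired edgeR fit called 0 of 9 (0% of all genes), with 8 of 9 at an unadjusted p under 0.05, and DESeq2 called 1, Tap1 (adjusted p = 0.0358), and gave no adjusted p for Psmb9. A replicate block shared by both stages called 0 of 9 as well. In the paired fit, with a block per stage, 6 of 9 fell, namely H2-K1, H2-D1, Tap1, Tap2, Psmb8 and Psmb9, where 0.840% of all genes were called lower. Over the 10 settings run for this comparison the adjusted p of each of these 6 reached 1. The members' median log2 change was -0.40, against -0.0039 over all genes.

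Among the heavy chains, H2-K1 stood at 220 and 192 CPM in MEF_fl and 164 and 124 CPM in MEF_creAF10, a log2 change of -0.53 ± 0.070 in the paired fit (edgeR adjusted p = 3.69e-05). Both sources showed it, with -0.43 in replicate 1 and -0.63 in replicate 2. H2-D1 went from 286 and 326 to 233 and 231 CPM (-0.40 ± 0.066, edgeR adjusted p = 5.69e-04). B2m went from 1368 and 1453 to 1257 and 1119 CPM, a change of -0.25 ± 0.071 that did not pass (edgeR adjusted p = 0.133), with -0.12 in replicate 1 and -0.38 in replicate 2.

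Tap1, at 138 and 138 CPM in MEF_fl and 104 and 96.4 CPM in MEF_creAF10, fell by 0.46 on the log2 scale in the paired fit (SE 0.067, edgeR adjusted p = 1.19e-04). Tap2 went from 69.9 and 66.4 to 53.5 and 52.6 CPM (-0.36 ± 0.074, edgeR adjusted p = 0.00748). Tapbp had 400 and 407 CPM against 320 and 362 CPM and did not pass (-0.25 ± 0.070, edgeR adjusted p = 0.132). Psmb9, whose start faces that of Tap1 across the shared 225 bases, showed the largest change of the 9, from 13.7 and 15.7 to 7.82 and 8.15 CPM (-0.88 ± 0.14, edgeR adjusted p = 2.47e-04). Psmb8 went from 48.1 and 39.4 to 37.1 and 22.2 CPM (-0.60 ± 0.12, edgeR adjusted p = 0.00748), with -0.37 in replicate 1 and -0.82 in replicate 2. Without MEF_creAF10 replicate 2 the unpaired change was -0.24 for Psmb8 and -0.34 for H2-K1, and without MEF_creAF10 replicate 1 it was -0.98 for Psmb8. Psmb10 had 47.5 and 39.5 against 38.7 and 29.8 CPM and did not pass (-0.35 ± 0.094, edgeR adjusted p = 0.0839). Psmb9 fell to 10.1% ± 0.256 (SD, n = 2) of its pair with Psmb6, from 18.6% ± 0.339.

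Several neighbours of the members fell with them in the paired fit, where 0.840% of all genes were called lower. H2-T23 (-0.55 ± 0.076), H2-T22 (-0.45 ± 0.090) and H2-T9 (-0.42 ± 0.087) were the 3 of 11 nonclassical class I genes called, all lower. Of the regulators 3 of 14 fell, among them Nlrc5 (-0.66 ± 0.12) and Stat2 (-0.33 ± 0.067). Of the constitutive catalytic, other 20S, activator, trimming and loading, and class II lists 0 genes were called by edgeR's paired fit or DESeq2, with 3 genes of these 5 lists at an unadjusted p under 0.05 in the paired fit. The macrophage and blood sum was 26.6 and 14.0 TPM in MEF_fl and 29.5 and 12.3 TPM in MEF_creAF10, and in that list 1 of 12 genes fell in the paired fit, Mpeg1.

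On day 4, AF10 deletion in DMSO left all 9 members uncalled. The unpaired and the paired edgeR fit and DESeq2 called 0 of 9, with 0 of 9 and 4 of 9 at an unadjusted p under 0.05 in the 2 edgeR fits, where the fits called 0% and 6.74% of all genes. H2-K1 had 26.5 and 24.4 CPM in Day4_fl_DMSO and 33.2 and 27.3 CPM in Day4_creAF10_DMSO, a log2 difference of 0.24 ± 0.090 in the paired fit (edgeR adjusted p = 0.102). Psmb8 had 5.00 and 3.53 against 5.15 and 6.65 CPM, a difference of 0.50 ± 0.19 (edgeR adjusted p = 0.113). For H2-D1 the difference was -0.0056 ± 0.073, and for B2m -0.080 ± 0.073. In SGC0946 both edgeR fits and DESeq2 again called 0 of 9, with 1 and 2 of 9 at an unadjusted p under 0.05, where the fits called 0% and 0.172% of all genes. B2m had 311 and 334 CPM in Day4_fl_SGC and 273 and 282 CPM in Day4_creAF10_SGC, a difference of -0.21 ± 0.073 (edgeR adjusted p = 0.379). Its groups did not overlap, as in the same direction for 1950 of the 13936 genes tested.

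Whether AF10 deletion acted differently at the 2 stages was tested directly, as the day 4 DMSO difference minus the MEF difference. It was positive for 9 of 9 members, with a median of 0.51 against 0.0011 over all genes. edgeR's unpaired fit called 0 of 9 and 0% of all genes, with 6 of 9 at an unadjusted p under 0.05, and DESeq2 and the replicate block shared by both stages called 0. The paired fit called 4 of 9 higher, where 0.933% of all genes were: H2-K1 (0.78 ± 0.11, edgeR adjusted p = 4.12e-04), H2-D1 (0.39 ± 0.098, edgeR adjusted p = 0.0437), Tap2 (0.56 ± 0.11, edgeR adjusted p = 0.00672) and Psmb8 (1.10 ± 0.22, edgeR adjusted p = 0.0107). Within the sources the value was 0.75 and 0.79 for H2-K1 and 0.57 and 0.55 for Tap2, and 0.42 and 1.71 for Psmb8. For H2-T23 and H2-T22 it was 0.81 ± 0.12 and 0.64 ± 0.15, and both were called. The adjusted p of the 4 members reached 1.00 over the 13 settings run.

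**Figure D4:**
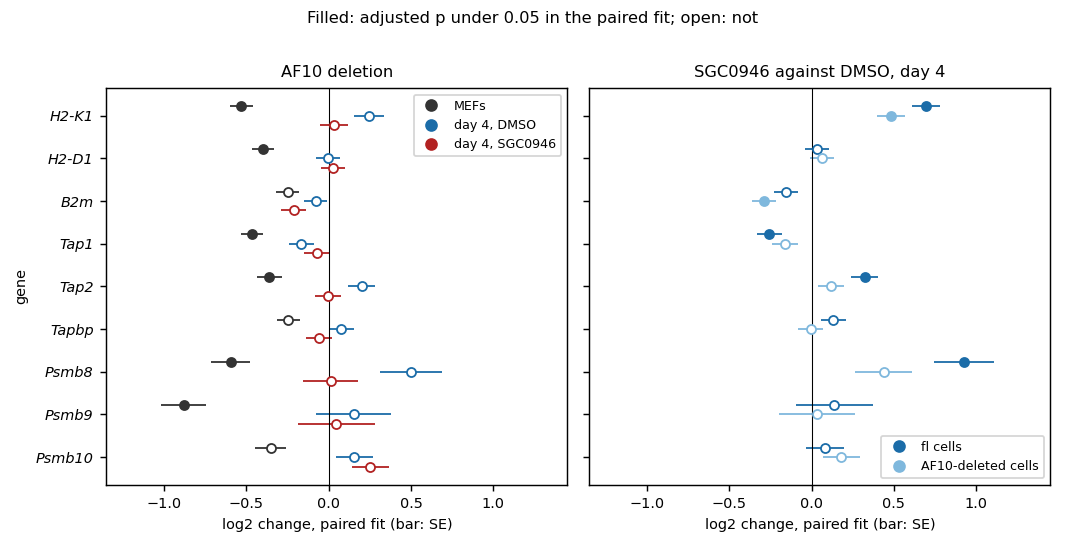
log2 change with its SE for each gene in the paired fit, after AF10 deletion in MEFs and on day 4 (left) and after SGC0946 on day 4 (right). Filled points have an adjusted p under 0.05; in MEFs every point lies below 0 and 6 are filled, while on day 4 no point for AF10 deletion is filled, and SGC0946 moved H2-K1 upward in both genotypes.

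SGC0946 on day 4 raised H2-K1 in the paired fit in both genotypes. In fl cells the paired fit called 3 of 9 higher, H2-K1, Tap2 and Psmb8, where 10.6% of all genes were called higher, and 1 of 9 lower, Tap1, where 7.10% were. The unpaired edgeR fit called 0 of 9, with 4 of 9 at an unadjusted p under 0.05, where 1.11% of all genes were called, and DESeq2 called 1, H2-K1. The 1 of 9 called lower is near its background share.

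H2-K1 stood at 26.5 and 24.4 CPM in Day4_fl_DMSO and at 41.3 and 41.0 CPM in Day4_fl_SGC, a log2 change of 0.69 ± 0.087 in the paired fit (edgeR adjusted p = 1.40e-06) and 0.69 ± 0.14 in the unpaired fit (edgeR adjusted p = 0.0544). The groups did not overlap, as in the same direction for 3257 of the 13936 genes tested, and the change was 0.64 in replicate 1 and 0.75 in replicate 2. H2-D1 had 72.5 and 65.0 against 71.1 and 69.1 CPM, a difference of 0.031 ± 0.073 that did not pass, and its groups overlapped. Psmb8 went from 5.00 and 3.53 to 8.37 and 7.64 CPM (0.93 ± 0.18, edgeR adjusted p = 6.38e-04), while Psmb9 (0.14 ± 0.23) and Psmb10 (0.082 ± 0.12) did not pass and their groups overlapped. Tap2 went from 33.5 and 29.4 to 41.9 and 36.7 CPM (0.32 ± 0.081, edgeR adjusted p = 0.00535), and Tap1 in the opposite direction from 44.6 and 49.8 to 37.8 and 41.2 CPM (-0.26 ± 0.077, edgeR adjusted p = 0.0187). B2m and Tapbp did not pass, at -0.16 ± 0.073 and 0.13 ± 0.076. Over the 10 settings run, the adjusted p reached 0.369 for H2-K1, 0.664 for Psmb8, 0.722 for Tap2 and 0.751 for Tap1.

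In AF10-deleted cells SGC0946 again raised H2-K1 in the paired fit, from 33.2 and 27.3 to 42.1 and 42.1 CPM (0.48 ± 0.086, edgeR adjusted p = 5.17e-04), where 5.28% of all genes were called higher. B2m, where 2.47% of all genes were called lower, fell from 335 and 345 to 273 and 282 CPM (-0.29 ± 0.073, edgeR adjusted p = 0.0110). The unpaired edgeR fit called 0 of 9, with 2 of 9 at an unadjusted p under 0.05 and 0.00718% of all genes called, and DESeq2 called 0 of 9. Psmb8 had 5.15 and 6.65 against 8.33 and 7.81 CPM and did not pass (0.44 ± 0.17, edgeR adjusted p = 0.132). Its groups did not overlap, as in the same direction for 2700 of the 13936 genes tested. Over the 10 settings the adjusted p of H2-K1 and of B2m reached 1. The difference between the 2 genotypes' responses was called for 0 of 9 members by either edgeR fit or DESeq2, with 0 of 9 at an unadjusted p under 0.05 in the unpaired fit, where the 2 edgeR fits called 0% and 0.395% of all genes. For H2-K1 it was -0.21 ± 0.12 and for Psmb8 -0.49 ± 0.25.

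Cells with both AF10 deletion and SGC0946 were set against Day4_fl_DMSO, the group with neither, which the comparison shares with the preceding ones. H2-K1, at 42.1 and 42.1 against 26.5 and 24.4 CPM, was the 1 member called in edgeR's unpaired fit (0.73 ± 0.14, adjusted p = 0.0353), where 1.28% of all genes were called higher, and without any 1 of the 4 libraries the call was lost (adjusted p = 0.153 to 0.255). The paired fit called 4 of 9 higher, where 12.3% of all genes were, namely H2-K1, Psmb8 (0.94 ± 0.18), Tap2 (0.32 ± 0.080) and Psmb10 (0.33 ± 0.11). It called 2 of 9 lower, where 9.25% of all genes were, namely B2m (-0.37 ± 0.073) and Tap1 (-0.33 ± 0.076). H2-D1, Tapbp and Psmb9 did not pass. DESeq2 called H2-K1 higher and B2m lower. Over the 10 settings run, the adjusted p reached 0.255 for H2-K1, 0.316 for B2m, 0.490 for Tap1, 0.637 for Tap2, 0.527 for Psmb8 and 0.840 for Psmb10. In the unpaired fit Psmb10 changed from 0.34 to 0.15 without Day4_creAF10_SGC replicate 1, and Tap2 from 0.32 to 0.21 without Day4_fl_DMSO replicate 2.

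The unequal responses of partner genes were also measured as TPM ratios, in the 4 SGC0946 against the 4 DMSO libraries of day 4. H2-K1 to H2-D1 was 0.613 to 0.633 in SGC0946 and 0.387 to 0.497 in DMSO, without overlap (exact two-sided permutation p = 0.0286, the smallest this design gives, and 0.0714 adjusted over the 5 ratios). Psmb8 to Psmb5 was 0.0557 to 0.0639 in SGC0946 and 0.0303 to 0.0484 in DMSO, also without overlap and with the same exact p and adjusted value. Tap2 to Tap1 overlapped, at 1.06 to 1.34 in SGC0946 and 0.700 to 1.15 in DMSO (exact permutation p = 0.0857, adjusted 0.143). Psmb9 to Psmb6 and Psmb10 to Psmb7 overlapped as well (exact permutation p = 0.343 and 0.229). After adjustment no ratio was under 0.05. This permutation exchanges all day 4 libraries freely, although they come from 2 sources of cells. The ratios also use the libraries of the preceding comparisons, so they are no separate evidence. The overlap for Tap2 to Tap1 lay between the sources: set against the DMSO library of the same genotype and replicate number, SGC0946 was higher in 4 of 4 pairs for this ratio, for H2-K1 to H2-D1 and for Psmb8 to Psmb5, and in 3 of 4 for the other two. With labels exchanged only within a replicate number, a test added after the data were seen, the exact two-sided permutation p was 0.0556 for each of the first 3 ratios, the smallest this scheme gives (0.0926 adjusted over the 5), and 0.389 and 0.333 for the proteasome ratios of Psmb9 and Psmb10. The H2-K1 to H2-D1 ratio rests on 2 genes that share sequence.

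The regulators and markers were read in the same comparison. Under SGC0946 in fl cells the paired fit called 7.10% of all genes lower and 10.6% higher. Of the regulators it called 4 of 14 lower and 0 higher, with Irf9 at -0.38 ± 0.082 and Stat2 at -0.32 ± 0.083. Nlrc5 had 2.01 and 1.88 CPM in Day4_fl_DMSO against 2.55 and 2.64 CPM in Day4_fl_SGC and was not called. Its groups did not overlap, as in the same direction for 3257 of the 13936 genes tested. Of the receptor and signalling genes 3 of 9 rose, Socs3 (0.48 ± 0.072), Ifngr2 (0.37 ± 0.083) and the kinase gene Jak2 (0.25 ± 0.072). Of the nonclassical genes 1 of 11 rose, H2-T23 (0.27 ± 0.091), a share near that of all genes. Of the constitutive catalytic subunits 1 of 3 rose, Psmb5 (0.27 ± 0.070). Epithelial markers moved with the inhibitor: their sum was 64.7 to 90.8 TPM in the 4 DMSO and 117 to 128 TPM in the 4 SGC0946 libraries. In the paired fit 5 of 5 tested rose in each genotype, where 10.6% (fl) and 5.28% (AF10-deleted) of all genes were called higher. The macrophage and blood sum was 61.7 to 98.8 TPM in DMSO and 72.0 to 87.1 TPM in SGC0946. The part of these cells in the members' levels was not tested.

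Across all 12 libraries each member was set against the mean of the members, with Pearson's r of log2 CPM from 0.959 for Tap2 to 0.995 for H2-D1. That mean includes the member itself, here and in the day 4 values below, so part of each member's r is built in. The 5 other genes most like that mean, among those with a mean of at least 10 CPM, were Ly6e (r = 0.999), BC006779 (0.998), Parp14 (0.996), Bst2 (0.996) and Herc6 (0.995). These libraries fall into 2 stages, and the stage difference sets most of each value. Within the 8 day 4 libraries, with the mean of each replicate number taken off, the members no longer moved as one: r with their mean was 0.945 for Psmb8, 0.929 for Tap2 and 0.821 for H2-K1, 0.397 for H2-D1, and -0.774 for B2m and -0.854 for Tap1. The 5 genes most like the mean there were Ass1 (0.987), Tspan11 (0.985), Fxyd5 (0.985), P4ha3 (0.985) and Olfm1 (0.982). All these values describe shared libraries and were not tested.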

How the data were processed

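Libraries were made from polyadenylated RNA with the TruSeq kit, per the labels' protocols. The submitters' processing notes name Bowtie, RSEM and build mm9; versions are not given in the sources used here. Per the file headers, the authors deposited RSEM expected counts and TPM values for 20325 genes, plus FPKM values not used here. RSEM divides reads that match several genes. The files were joined by transcript identifier, because 10 of them hold 25 names each that read as dates. Expected counts were rounded, filtered with filterByExpr (13936 genes kept) and TMM-scaled, and CPM was computed from them. Tests used edgeR 4.0.16 in R 4.3.3, as quasi-likelihood fits over 12 libraries with Benjamini-Hochberg adjustment, and DESeq2 1.42.0 beside them. The unpaired fit was set as the main one, and the fits with a replicate block, the paired fit among them, as alternatives. An SE is the log2 change divided by the square root of F. The scripts were tested on simulated data.

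Deviations of same-numbered libraries from their group means correlated at 0.413 to 0.737 within a stage (7 pairs of groups) and at 0.286 to 0.340 across stages (8 pairs), so the numbers pair the libraries. The paired fit has a replicate block per stage. For day 4 against MEFs such a block takes out disagreement between the sources, so the unpaired values are given there. Alternatives were another scaling, no filter, DESeq2, a replicate block, fits to 1 stage, and each library left out. In every comparison all 9 members are named, and from each related list at most 3 called genes by lowest p, with others only where a level bears on a result. One item is not reported here. The genes and lists were chosen with earlier results of these data known, so their direction is not independent evidence. Promoter sequences are RefSeq's for GRCm38.p6, and no coordinates of mm9 are given.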

Additional observations from a re-analysis of the deposited data

Results flagged for a closer look

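The change after AF10 deletion differed between MEFs and day 4 in DMSO, by the test of that difference in the paired edgeR fit, for H2-K1 (0.78, adjusted p = 4.12e-04), H2-D1 (0.39, adjusted p = 0.0437), Tap2 (0.56, adjusted p = 0.00672) and Psmb8 (1.10, adjusted p = 0.0107). The same 4 values compare the change from MEFs to day 4 between fl and AF10-deleted cells, in which each of these genes fell less when AF10 was deleted. The unpaired fit gave an adjusted p of 1.00 for each.

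For Tapbp (0.32), Psmb9 (1.03) and Psmb10 (0.51) both sources of cells had lower values after deletion in MEFs and higher ones on day 4 in DMSO. The test of the difference did not pass for them (paired edgeR adjusted p = 0.133, 0.0570 and 0.0912). Tapbp also had higher values after deletion in DMSO and lower ones in SGC0946 in both sources, with a difference of -0.14 (paired edgeR adjusted p = 0.728). That difference did not pass either, and the Tapbp groups overlapped in DMSO and in SGC0946.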

How the results depend on the processing

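All log2 changes of called members kept their direction in every alternative run. The 9 of 9 lower on day 4 held in both genotypes in each, with adjusted p of at most 0.0167. Calls within a stage moved with how the replicate number entered the fit. After AF10 deletion in MEFs 0 members were lower without it, 0 with a replicate block shared by both stages and 0 from the MEF libraries alone. There 6 were lower with a replicate block per stage and 1 by DESeq2. Under SGC0946 in fl cells 0 were higher without it, 3 with a replicate block, 3 per stage, 2 from the day 4 libraries alone, 1 by DESeq2 and 1 with no filter, and 1 was lower per stage. In AF10-deleted cells 1 was higher and 1 lower per stage. For deletion plus SGC0946 the 1 higher became 3 with the block, 4 per stage and 2 from day 4 alone, and 0 without any 1 of the 4 libraries, while 2, 2 and 1 were lower, and 1 by DESeq2. For the difference between stages 0 were higher with the shared block and 4 per stage. For the 4 called members of that difference the unpaired adjusted p was 1.00. Leaving out 1 library moved 4 called changes by over 1.5 times, those of H2-K1 and Psmb8 in MEFs and of Tap2 and Psmb10 for deletion plus SGC0946, whose values stand beside those results. Another scaling moved the median of all genes by at most 0.012 in size. Psmb9, with 28 to 258 counts per library, is limited most by depth.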
